A study of Homo sapiens with 12 samples.

Results

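Chromosome 4 was examined in ATAC-seq peak lists of MIAPaCa2 cells, an established human pancreatic ductal adenocarcinoma line that relies on glycolysis. In ATAC-seq a transposase places sequencing adapters in accessible DNA, so that a peak marks a stretch of open chromatin. The members were all peaks on chromosome 4 in the 12 lists, 18524 of 671854 peaks on chromosomes 1 to 22 and X. The chromosome was chosen by its measured share of peaks, which was higher in resistant than in parental libraries, so every comparison of the 2 phenotypes on it is a description without a test. There were 4 groups of 3 libraries: untreated parental cells, parental cells treated with oxamate, untreated resistant cells and resistant cells treated with oxamate. All came from the same cell line in the same medium. Oxamate inhibits lactate dehydrogenase A (LDHA), the enzyme that interconverts pyruvate and lactate, and the resistant cells were a population that survived prolonged growth in it rather than a single clone. No source says that replicates were separate cultures, so p-values measure only the spread between these libraries, which may be technical.

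Open chromatin is found at promoters, enhancers and other regulatory elements, where transcription factors displace nucleosomes, and promoters rich in CG dinucleotides are open in most cell types. Human chromosome 4 is gene-poor and AT-rich for much of its length. Its gene-dense short-arm end holds the growth factor receptor gene FGFR3 and the homeobox gene MSX1, its middle holds the receptor genes PDGFRA, KIT and KDR, a run of CXC chemokine genes and several EGF-family ligand genes, and further along lie the alcohol dehydrogenases.

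The sequences of 5 promoters show the range of start sites the peak lists met on this chromosome. They were taken from RefSeq (GRCh38.p14), run 5′ to 3′ over the 250 bases before the annotated start, and have each CG dinucleotide, the site of DNA methylation, in capitals. These genes were picked after their values were seen. COQ2, a coenzyme Q biosynthesis gene, had a peak within 1 kb of its start in all 12 libraries, and ADH1B, an alcohol dehydrogenase of the liver, in 0 of 12. ATOH1, a neurogenic and secretory-lineage transcription factor, PDGFRA, a receptor tyrosine kinase, and ADAMTS3, a procollagen-processing protease, had one in more resistant than parental libraries.
COQ2, chr4:83284799-83285048, minus strand: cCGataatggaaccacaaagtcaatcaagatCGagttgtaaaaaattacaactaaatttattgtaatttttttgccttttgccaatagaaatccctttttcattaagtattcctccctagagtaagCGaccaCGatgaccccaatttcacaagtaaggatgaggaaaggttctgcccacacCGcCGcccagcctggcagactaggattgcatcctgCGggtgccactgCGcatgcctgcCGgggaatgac
ATOH1, chr4:93828503-93828752, plus strand: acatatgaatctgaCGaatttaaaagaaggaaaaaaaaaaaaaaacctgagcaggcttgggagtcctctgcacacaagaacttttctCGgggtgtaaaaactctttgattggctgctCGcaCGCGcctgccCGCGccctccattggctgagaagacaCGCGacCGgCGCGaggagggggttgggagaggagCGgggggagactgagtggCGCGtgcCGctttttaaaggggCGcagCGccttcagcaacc
PDGFRA, chr4:54229043-54229292, plus strand: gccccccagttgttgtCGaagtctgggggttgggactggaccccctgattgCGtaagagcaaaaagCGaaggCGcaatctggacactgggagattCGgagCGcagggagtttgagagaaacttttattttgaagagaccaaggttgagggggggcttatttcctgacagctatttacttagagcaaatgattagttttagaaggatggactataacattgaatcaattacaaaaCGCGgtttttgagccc
ADAMTS3, chr4:72569222-72569471, minus strand: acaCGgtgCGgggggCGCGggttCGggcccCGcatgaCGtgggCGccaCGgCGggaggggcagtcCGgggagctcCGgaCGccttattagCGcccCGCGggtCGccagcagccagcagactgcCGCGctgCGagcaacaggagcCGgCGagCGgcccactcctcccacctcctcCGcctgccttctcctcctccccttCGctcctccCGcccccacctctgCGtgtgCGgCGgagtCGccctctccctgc
ADH1B, chr4:99321402-99321651, minus strand: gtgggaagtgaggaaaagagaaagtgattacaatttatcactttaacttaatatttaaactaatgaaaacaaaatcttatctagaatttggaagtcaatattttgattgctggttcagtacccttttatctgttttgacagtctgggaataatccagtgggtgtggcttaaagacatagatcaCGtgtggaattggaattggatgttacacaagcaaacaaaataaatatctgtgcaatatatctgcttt
The printed stretches held 9, 18, 8, 30 and 1 CG in that order. GC content was 45.6% before COQ2, 55.2% before ATOH1, 46.8% before PDGFRA, 75.2% before ADAMTS3 and 32.4% before ADH1B. The 250 bases of the ADAMTS3 promoter were thus the richest in CG of the 5, although no parental library had a peak within 1 kb of that start.

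Chromosome 4 held a larger share of the peaks in resistant than in parental cells. It took 2.72%, 2.82% and 2.57% of the peaks of the untreated parental libraries (replicates 1 to 3) and 2.45%, 2.36% and 2.39% of those of the treated parental libraries. The untreated resistant libraries had 2.93%, 2.73% and 3.03%, and the treated resistant libraries 3.09%, 2.94% and 3.10%. All treated parental libraries lay below every other library, and the 2 phenotypes overlapped at 1 point, untreated resistant replicate 2 being below untreated parental replicate 2. Parental libraries averaged 2.55% ± 0.187 and resistant libraries 2.97% ± 0.138 (SD, n = 6 each), a difference of 0.416 percentage points. The resistant share was thus 16.3% higher than the parental one, the largest relative difference among 23 chromosomes, whose relative changes ran from -10.9% on chromosome 13. In points, chromosome 19 had a larger positive difference, and chromosomes 1 and 7 had larger negative ones. Across the 23 chromosomes, 1 (4.35%) had all resistant shares above all parental ones, and this was not chromosome 4. In numbers, parental lists had 1468 ± 214 chromosome 4 peaks and resistant lists 1619 ± 147 (SD, n = 6 each), against whole lists of 57432 ± 6249 and 54544 ± 4186 (SD, n = 6 each).

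**Figure D1:**
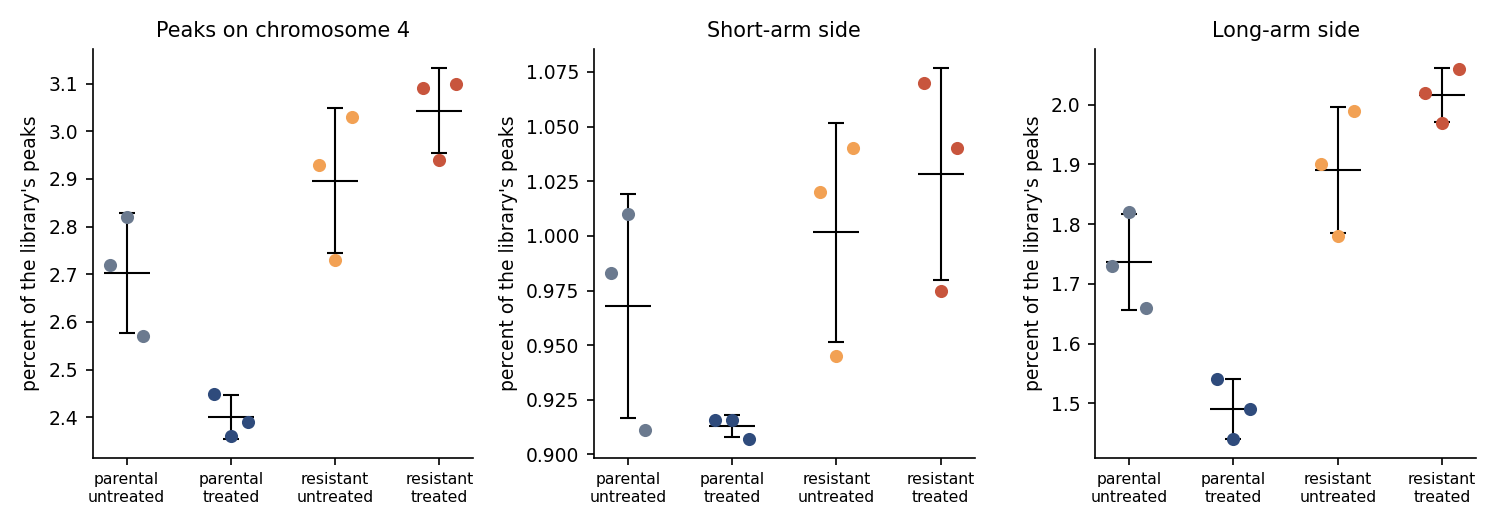
Percent of each library's peaks that lie on chromosome 4 (left), on its short-arm side below 50 Mb (middle) and on its long-arm side above 50 Mb (right); points are the 3 libraries of a group, and the black line and bar are their mean and SD. Treated parental libraries are lowest in the left panel, at 2.36% to 2.45%, and treated resistant libraries highest on average, at 2.94% to 3.10%.

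The libraries also differed by phenotype in ways that reach the peak caller. The smallest peak width was 67 to 87 bp in parental and 94 to 124 bp in resistant lists. Depth relative to the shallowest library, recovered from the deposited fold and p-value of each list, averaged 1.55 without and 2.27 with oxamate in parental libraries, and 1.43 and 1.08 in resistant ones. Peaks with a -log10 q of at least 3 made up 49.0% ± 7.09 of parental and 65.2% ± 3.90 of resistant lists (SD, n = 6 each), and on chromosome 4 55.0% ± 6.76 and 70.4% ± 3.29. The part of these properties in the chromosome 4 share was not tested. With stricter peaks the difference between phenotypes was 0.337 points, with peaks at least 124 bp wide 0.322 points, and with the 45748 best-ranked peaks of each list 0.412 points. By covered bases instead of peaks it was 0.299 points, from 2.77% ± 0.126 in parental (2.64% to 2.92%) to 3.07% ± 0.0529 in resistant libraries (3.01% to 3.14%), and the phenotypes then did not overlap. As a check of the labels, the starts of the keratin gene KRT8, the intermediate filament gene VIM and the drug target LDHA had a peak in 12 libraries. Starts of PTPRC of leukocytes and ALB of hepatocytes had none, and the acinar gene PRSS1 had one in 1 library.

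Most of the higher share in resistant cells lay on the long-arm side. Above 50 Mb the parental libraries had 1.44% to 1.82% of their peaks (median 1.60%) and the resistant libraries 1.78% to 2.06% (median 1.98%). Below 50 Mb the ranges were 0.907% to 1.01% (median 0.916%) and 0.945% to 1.07% (median 1.03%). Both sides overlapped between phenotypes. On the long-arm side the share went from a mean of 1.61% ± 0.148 to 1.95% ± 0.0991 (SD, n = 6 each), which is 82.1% of the difference, and on the short-arm side from 0.940% ± 0.0433 to 1.01% ± 0.0454, the other 17.9%. The chromosome's 50-Mb split falls in the pericentromeric block of repeated DNA, and there the direction was opposite. Between 48 and 53 Mb the parental lists had 87 to 131 peaks (110 ± 18.0, SD, n = 6) and the resistant lists 69 to 90 (76.8 ± 7.41). The 3 treated parental libraries had 108, 131 and 120 and untreated parental replicate 3 had 122, while untreated parental replicates 1 and 2, with 90 and 87, overlapped the resistant range. Without that window the difference between phenotypes grew to 0.467 points, 2.36% ± 0.221 against 2.83% ± 0.150 (SD, n = 6 each). The part below 48 Mb made up 31.0% of the chromosome's difference, that above 53 Mb 81.4% and the window -12.4%. In relative terms the resistant share was 16.7% higher below 48 Mb and 21.4% higher above 53 Mb. The smaller part of the short-arm side thus holds peaks of the window that went the other way.

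The difference was spread along the chromosome rather than held by one segment. Of 20 bins of 10 Mb, 18 (90.0%) had a higher mean share in resistant cells, against 57.1% of 310 bins in the genome, and the share in all 6 resistant libraries lay above all 6 parental ones in 4 bins. Genome-wide 4.52% of bins had this property, and 2.58% had all resistant libraries below, which no chromosome 4 bin had. The 4 bins ran from 10 to 20, 70 to 80, 100 to 110 and 180 to 190 Mb and together made up 33.6% of the chromosome's difference. Their number was 8 without untreated parental replicate 2 and 7 without untreated resistant replicate 2, the 2 libraries at which the phenotypes overlapped. Leaving out a library can only keep or raise this number.

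The largest difference in points was at the short-arm end, from 0 to 10 Mb, where 135 protein-coding genes lie. Parental libraries had 0.413% to 0.545% of their peaks there (median 0.440%) and resistant libraries 0.482% to 0.578% (median 0.558%), an overlap, with a difference of 0.0736 points. The next lay between 150 and 160 Mb, a stretch that holds the ubiquitin ligase gene FBXW7. There the parental range was 0.129% to 0.182% (median 0.149%) and the resistant range 0.179% to 0.236% (median 0.214%). This bin had the largest relative difference of the 20, 38.6%, with a difference of 0.0589 points. Between 70 and 80 Mb, where the chemokine and EGF-family ligand genes lie, parental libraries had 0.178% to 0.231% (median 0.204%) and resistant libraries 0.249% to 0.275% (median 0.257%). These groups did not overlap and differed by 0.0525 points. The 3 bins made up 44.5% of the difference. Only 2 bins were lower in resistant cells, 40 to 50 Mb by 0.0375 points as the mean went from 0.233% ± 0.0290 to 0.196% ± 0.0152, and the chromosome's end beyond 190 Mb, from 0.0266% ± 0.00558 to 0.0203% ± 0.00384 (SD, n = 6 each). The bin from 40 to 50 Mb includes the first part of the pericentromeric window.

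**Figure D2:**
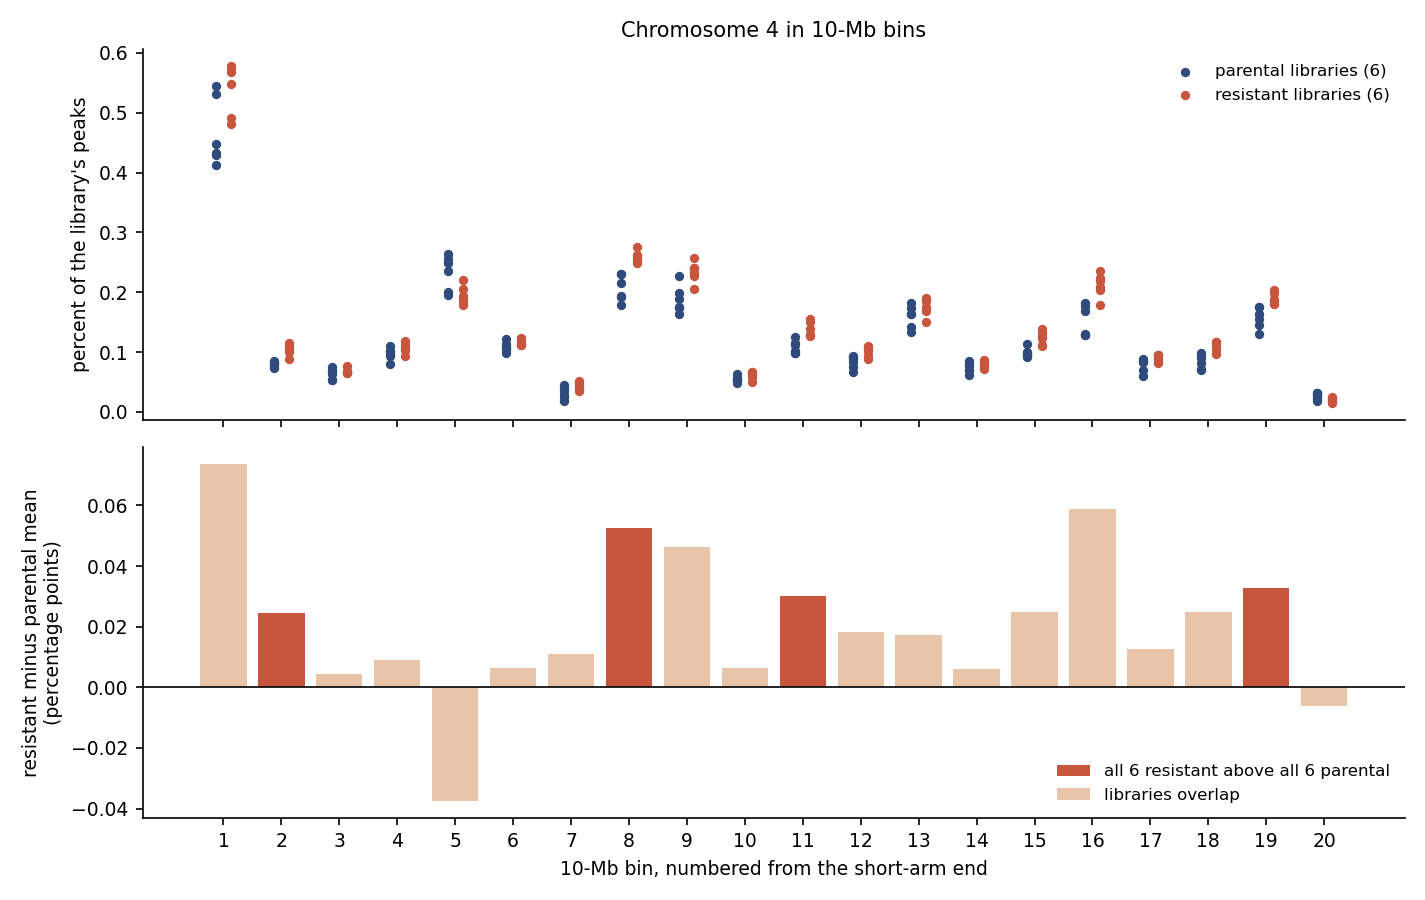
Chromosome 4 in 20 bins of 10 Mb, numbered from the short-arm end. The upper panel plots the percent of each library's peaks in a bin (points, 6 parental and 6 resistant libraries) and the lower panel the difference of the phenotype means in percentage points; 18 bars lie above 0, and dark bars mark the 4 bins in which the phenotypes do not overlap.

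Merging peaks of the 12 lists that overlapped by at least 1 bp gave 178040 regions, of which 3664 were on chromosome 4. Of these, 673 were called in all 12 libraries, 652 in 6 to 11, 793 in 2 to 5 and 1546 in a single library. The constitutive regions carry no difference by construction, and 53.2% of them came within 1 kb of an annotated gene start. The number of libraries that call a region limits how far the phenotypes can differ in it, so the classes are described and not ranked. Among regions called in 2 to 5 libraries, chromosome 4 made up 2.78%, 2.61% and 2.35% in the untreated parental libraries and 1.98%, 1.98% and 1.86% in the treated ones. In the resistant libraries it made up 3.16%, 2.82% and 3.51% without treatment and 3.69%, 3.51% and 3.70% with it. Every resistant library was above every parental library, with means of 3.40% ± 0.345 and 2.26% ± 0.378 (SD, n = 6 each). In regions called in 6 to 11 libraries the means were 3.47% ± 0.0645 and 3.26% ± 0.272, and the 3 treated parental libraries, at 2.73% to 3.28%, were the lowest. Regions of a single library gave 1.87% ± 0.473 in resistant and 1.27% ± 0.341 in parental cells, and overlapped.

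**Figure D3:**
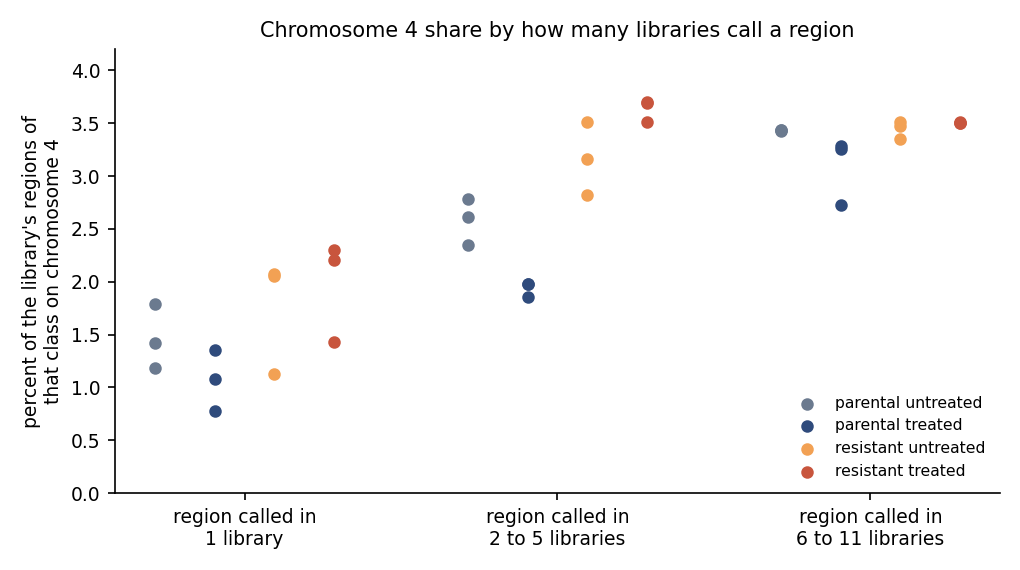
Percent of a library's regions that lie on chromosome 4, for regions called in 1, in 2 to 5 and in 6 to 11 libraries; each point is 1 library. In the middle class the 6 parental libraries lie between 1.86% and 2.78% and the 6 resistant libraries between 2.82% and 3.70%.

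The difference was also larger away from gene starts. Among peaks within 1 kb of a RefSeq gene start, chromosome 4 held 3.86% ± 0.110 in parental and 3.97% ± 0.0375 in resistant lists, and among all other peaks 2.29% ± 0.231 and 2.80% ± 0.181 (SD, n = 6 each). The number of chromosome 4 peaks near a start was 476 ± 24.0 and 477 ± 5.00 (SD, n = 6 each). These values cover 22 chromosomes, since starts on 1 were not used here.

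With oxamate the chromosome 4 share was lower in parental cells and higher in resistant cells than without it. In parental cells the mean went from 2.70% ± 0.129 to 2.40% ± 0.0496 (SD, n = 3 each) and the 3 treated libraries lay below the 3 untreated ones, a difference of -0.301 points (two-sided exact permutation p = 0.1, which is the lowest possible with 3 libraries on each side). In resistant cells it went from 2.89% ± 0.154 to 3.04% ± 0.0858, a difference of 0.147 points with overlapping libraries (two-sided exact permutation p = 0.2). The difference between these effects was 0.449 points (two-sided exact permutation p = 0.01 over 400 assignments, 0.0767 after Benjamini-Hochberg adjustment over 23 chromosomes). It therefore did not pass the threshold of 0.05. No chromosome did (0% called), and 6 of 23 had an unadjusted p under 0.05, among them chromosomes 12 and X with the same p of 0.01. The smallest p this design can give is 0.005. Averaged over phenotypes, treated minus untreated was -0.0771 points (exact permutation p = 0.435, adjusted p = 0.562), again with 0% of chromosomes called and 2 with an unadjusted p under 0.05. Without untreated resistant replicate 3 the interaction of treatment and phenotype was 0.516 points with an adjusted p of 0.0460 (exact permutation test), and leaving out any other library kept it above 0.05. By covered bases it was 0.287 points and with peaks at least 124 bp wide 0.297 points (adjusted p = 0.115 and 0.144, exact permutation tests). The shares of all chromosomes sum to 100%, so they are not independent. Relative depth moved opposite to the share in both phenotypes. With treatment it went from 1.55 to 2.27 in parental and from 1.43 to 1.08 in resistant libraries. Of the 2 libraries at which the phenotypes overlapped, untreated parental replicate 2 was the shallowest parental library (1.33). Untreated resistant replicate 2 was the deepest resistant one (1.85). The part of depth in the share was not tested.

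**Figure D4:**
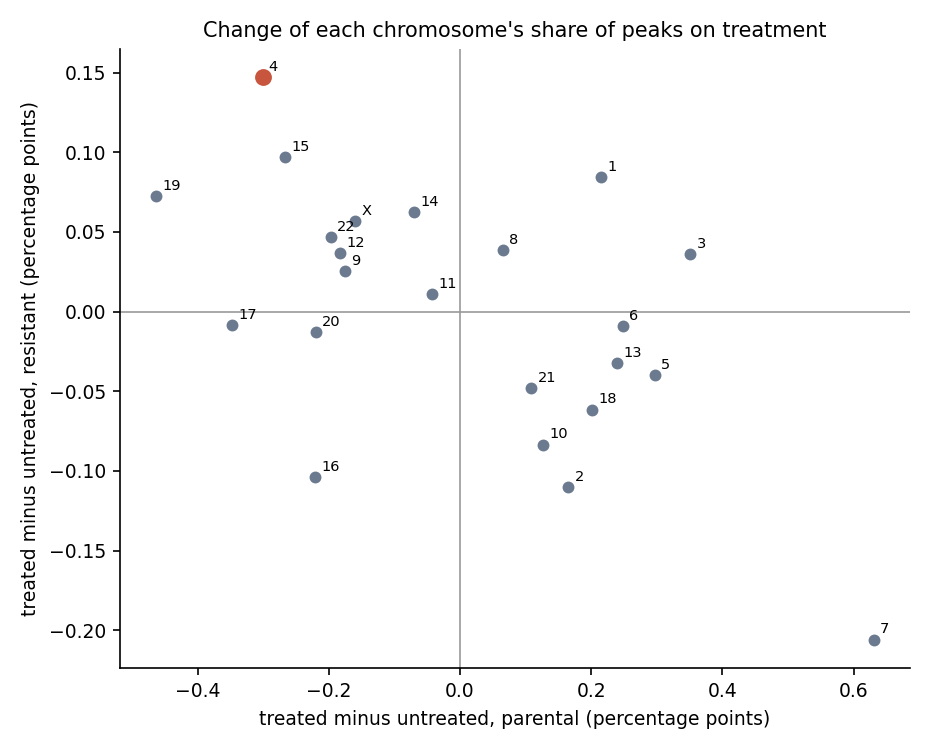
Treated minus untreated share of peaks, in percentage points, for 23 chromosomes (numbered points), in parental cells on the horizontal and in resistant cells on the vertical axis. Chromosome 4 (large point) is at -0.301 and 0.147, the highest of all chromosomes on the vertical axis.

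The lower share of treated parental cells was met in most bins of the chromosome. In 17 of 20 bins the treated parental mean was below the untreated one, whereas in resistant cells 3 of 20 were. The parental difference ran from -0.0826 points between 0 and 10 Mb to 0.0454 points between 40 and 50 Mb. Such bins were not counted over the genome, and a lower share of the chromosome itself makes lower bins likely. None of the bins passed the test of treatment over both phenotypes (two-sided exact permutation test adjusted over 310 bins, 0% called genome-wide). This permutation test gives no p under 0.005, so a bin could pass only if many bins reached that value together. Its smallest adjusted p was 0.537, and the lack of calls cannot decide whether single bins changed. At an unadjusted p under 0.05 there were 26 bins in the genome and 1 on chromosome 4, 50 to 60 Mb, at 0.00759 points (exact permutation p = 0.045). The height of chromosome 4 peaks was examined as the median fold of its regions called in all 12 libraries over that of all such regions in the same list. It was 1.01 ± 0.0223 in parental and 1.04 ± 0.0163 in resistant libraries (SD, n = 6 each). Treated minus untreated was -0.0150 (exact permutation p = 0.2, adjusted p = 0.403), with 0 of 23 chromosomes called and 5 at an unadjusted p under 0.05.

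Single regions that were open in every library of one phenotype and none of the other were few. On chromosome 4, 8 regions (0.218%) had a peak in all 6 resistant lists and in none of the 6 parental lists, against 0.117% of all regions, and 1 (0.0273%) had the reverse pattern, against 0.0258%. Regions of a single library cannot qualify, and they were 1546 of 3664 (42.2%) on chromosome 4 but 105931 of 178040 in the whole set. The percentages therefore rest on sets of unlike make-up. Without treated resistant replicate 2 the resistant-only count was 15, and omitting a library can only keep or raise it. The best-ranked resistant-only region, chr4:34054210-34054591, lay in no annotated gene, 14317 bp from the nearest gene end. Its deposited fold over local background was 10.8, 8.92 and 12.3 in untreated and 9.69, 9.30 and 13.1 in treated resistant libraries. It was the tallest of the 8 in all of them. The second, chr4:14855980-14856761, lay within the long noncoding RNA gene LINC00504, with folds of 4.84 to 8.18. Next were chr4:123478863-123479509 (3.36 to 5.13) and chr4:17336541-17337226 (3.64 to 4.47), both between genes, and chr4:85953565-85953964 (4.02 to 5.02) within ARHGAP24, which encodes a GTPase-activating protein for Rac. The other 3 were named after their values were seen. They lay within SAP30, a subunit gene of the Sin3 histone deacetylase complex, at chr4:173371688-173372132 and 734 bp from its start; within ADAMTS3 at chr4:72567887-72568361 and 860 bp from its start; and within HNRNPDL, an RNA-binding protein gene, at chr4:82421811-82423549. Their folds ran from 2.37 to 3.98, below those of the best-ranked region. The parental-only region, chr4:22787151-22787259 in the pseudogene GBA3, was 109 bp wide, with folds of 4.39, 4.25 and 5.56 in untreated and 8.93, 6.81 and 7.27 in treated parental libraries. All treated values were above the untreated ones.

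Regions called in all 12 libraries give the reference against which these stand. The best ranked, chr4:146513379-146513571, was 193 bp wide and lay within the transporter-family gene SLC10A7, 8369 bp from its start. Its fold was 34.7 to 44.7 in parental and 30.0 to 35.6 in resistant libraries. A second narrow one, chr4:75040585-75040779 in PARM1, had 31.6 to 40.1 and 27.3 to 32.4. Of the 5 best ranked, 3 lay in the pericentromeric block, at chr4:49149159-49149840, chr4:49709239-49711912 and chr4:49139401-49139809, with folds between 7.36 and 20.2. None of these 5 covered a gene start. The widest constitutive regions were of another kind, since 3 of 5 covered one. They were chr4:110196042-110198813 at the fatty acid elongase gene ELOVL6, chr4:56976392-56979133 over the starts of NOA1 and the RNA polymerase II subunit gene POLR2B, and chr4:183503841-183506479 at the chromatin reader gene ING2. The others were chr4:49709239-49711912 again and chr4:181238992-181241727, between genes. Folds at the gene-start regions lay between 3.43 and 7.70. Merged regions join peaks of different extent, and a peak came within 1 kb of the ELOVL6 start in 11 libraries.

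More chromosome 4 regions dropped out with oxamate in parental than in resistant cells. In parental cells 68 regions (1.86% of 3664) went from 3 of 3 untreated to 0 of 3 treated libraries, against 0.921% of all regions, and 3 (0.0819%) were gained, against 0.117%. In resistant cells 6 (0.164%) were lost and 12 (0.328%) gained, against 0.159% and 0.138% of all regions. Here too regions of a single library, fewer in proportion on chromosome 4, cannot qualify but count in the percentages. Of the 1048 chromosome 4 regions called in every untreated parental library the loss was 6.49%, and on other chromosomes 4.58%. No test was run on these counts, and the treated parental lists had the lowest shares of peaks with a -log10 q of at least 3 among the 4 groups, 40.6% to 47.9%. Between 0 and 10 Mb, 14 of the 178 regions called in every untreated parental library were lost. Between 180 and 190 Mb, 10 of 73 were. In all, the 68 lost regions were spread over 18 bins. In the resistant libraries 16 of them (23.5%) were called in 6 of 6 and 4 (5.88%) in none, near the 28.3% and 4.65% of regions lost on other chromosomes. The best-ranked losses were chr4:106590701-106591009 within a noncoding gene, with folds of 7.94, 11.2 and 11.4 in the untreated parental libraries, and chr4:113278403-113278760 in ANK2, an ankyrin gene, with 7.99, 6.47 and 5.70. Both were also called in resistant libraries, in 3 and 5 of 6. Both named parental gains, chr4:49096163-49096253 (folds 3.54, 3.60 and 2.82) and chr4:49131658-49131838 (3.73, 3.09 and 3.38), lay in the pericentromeric block. In resistant cells the best-ranked gain was chr4:128601336-128601785, between genes, called in no other group and with folds of 5.91, 11.2 and 8.43. The next, chr4:111937421-111937661 in LINC02945, had 5.54, 5.87 and 5.43, and 3 parental libraries had it too. Resistant losses were led by chr4:25767999-25768470 in SEL1L3 (7.38, 6.23 and 5.82 before treatment) and chr4:49316489-49316989 (3.54, 3.66 and 3.51), both present in some parental libraries.

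Gene starts were then read list by list, over 80 chromosome 4 genes of known roles. RefSeq starts were held for 70 of them. A peak within 1 kb was called in all 12 libraries for 41, in 1 to 11 libraries for 7 and in none for 22. Over all 657 protein-coding starts of the chromosome the shares were 50.4%, 14.5% and 35.2%. Of the 7 variable starts, 6 were called in more resistant libraries and 0 in more parental ones, while KIT had 5 of each. These counts describe the contrast that chose the chromosome. Starts on other chromosomes leaned the same way, 0.838% having a peak in at least 4 more resistant libraries and 0.0462% in at least 4 more parental ones.

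Among receptor tyrosine kinases, which carry growth factor signals across the membrane, none of 4 starts was called throughout. The start of FGFR3 (chr4, 1793293) was called in 3 of 3 untreated and 1 of 3 treated parental libraries and in all 6 resistant ones, with folds of 3.51 to 4.72 and 3.47 to 6.59. That of PDGFRA (54229293) was called in 2 untreated, 0 treated parental and 5 resistant libraries. Its folds were 6.38 and 6.40 in the former and 6.85 to 8.32 in the latter, and the 250 bases printed above end at this start. KIT (54657957), the stem cell factor receptor, had 5 and 5, and KDR, a vascular endothelial growth factor receptor, 0 of 12. Their EGF-family counterparts on the ligand side were more uniform. AREG, EREG and BTC, ligands of the EGF receptor family, were called in all 12, with median folds of 4.68, 4.84 and 5.19 in parental and 6.25, 5.99 and 6.53 in resistant libraries, whereas EGF itself and EPGN had no peak. Folds at these and the other listed starts stand beside a median over all peaks of 3.92 in parental and 4.53 in resistant lists. Of the other growth factors FGF2 was called in all 12, VEGFC in 5 parental and 6 resistant libraries and FGF5 in none.

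The CXC chemokine genes encode secreted attractants of leukocytes, and 5 of 11 starts were called in every library and 5 in none. Those of CXCL1, CXCL2, CXCL3, CXCL5 and CXCL8, which attract neutrophils, were called in all 12 libraries and that of CXCL6 in 5 parental and 6 resistant ones. No library had a peak near the starts of PPBP, whose product also draws neutrophils, of CXCL13 or of the interferon-inducible CXCL9, CXCL10 and CXCL11. CXCL2 had the highest median fold, 7.35 in parental (5.11 to 9.04) and 8.47 in resistant libraries (6.81 to 8.98). CXCL5 had 3.99 to 5.95 in parental and 6.36 to 7.20 in resistant libraries. Those ranges did not overlap, but deposited folds were higher in resistant lists as a whole, with a median over all peaks of 3.92 ± 0.340 against 4.53 ± 0.306 (SD, n = 6 each).

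Of 7 alcohol dehydrogenases only ADH5, the broadly expressed form that also clears formaldehyde, was called in all 12, and the other 6 in none. Among energy and metabolic genes 15 of 18 starts were called throughout, among them COQ2 (median rank in the top 3.36% of a list), COX18 of cytochrome oxidase assembly (4.22%), the folate enzyme gene MTHFD2L (4.33%) and UGDH (5.21%), which makes UDP-glucuronate. Folds at COQ2 were 8.48 to 12.9 in parental and 9.43 to 12.7 in resistant libraries. PPARGC1A, a coactivator of mitochondrial genes, was called in 12 at lower folds, 3.06 to 4.70 and 4.80 to 5.81, ELOVL6 in 11, and the brown-fat uncoupling gene UCP1 and the urate transporter gene SLC2A9 in none. The PPARGC1A folds too stand beside higher folds in resistant lists as a whole. All 12 starts of cell division and genome genes were called in every library. FBXW7 ranked highest (median top 5.96%), followed by the centromere protein gene CENPC (8.60%) and the spindle checkpoint gene MAD2L1 (9.87%).

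Developmental transcription factors split into NKX6-1, MSX1, NKX3-2 and PRDM8, called in all 12, and LEF1, HAND2, HMX1, POU4F2 and GSX2, called in none. ATOH1 (93828753) stood between them. It was called in 3 of 3 untreated parental libraries, with folds of 3.47 to 4.59, in 0 of 3 treated parental libraries and in 6 of 6 resistant ones, with folds of 4.21 to 6.04. Of the listed starts it was the only one called in 3 untreated and 0 treated parental libraries, which was not tested.

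**Figure D5:**
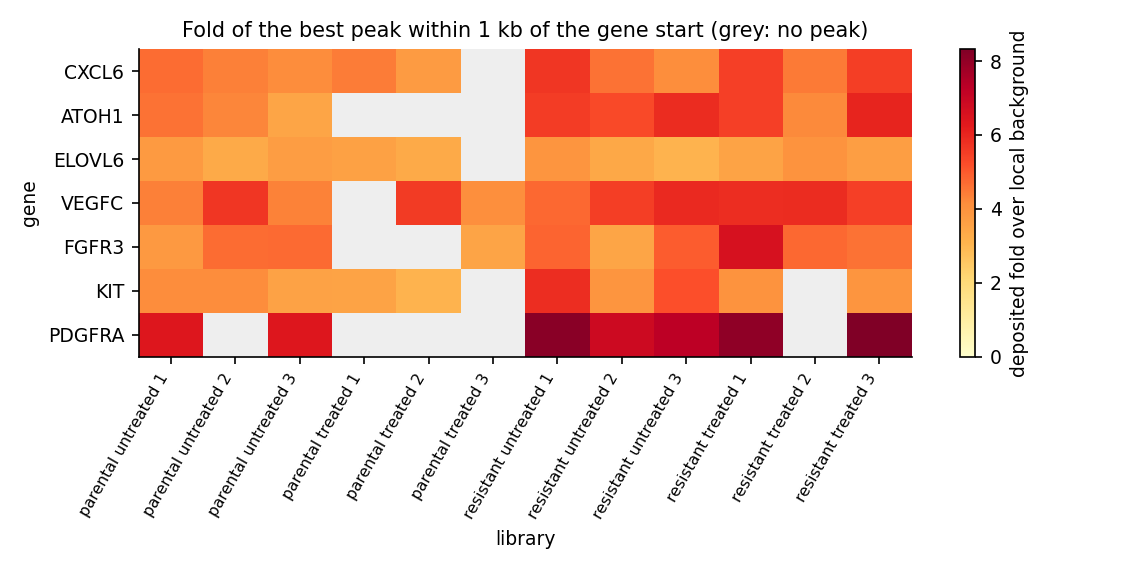
Deposited fold over local background of the best peak within 1 kb of the 7 listed gene starts called in 1 to 11 libraries, for each of 12 libraries; grey marks no peak. ATOH1 has no peak in the 3 treated parental libraries, and 6 of the 7 genes have more resistant than parental libraries with a peak, a lean that starts on other chromosomes share.

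Over all 657 protein-coding starts of the chromosome, 351 to 403 had a peak in parental libraries (median 382) and 392 to 407 in resistant libraries (median 402). None was called in all libraries of one phenotype and none of the other. A peak was called in at least 4 more resistant than parental libraries at 7 (1.07%), against 0.838% of starts on other chromosomes, and none had the reverse, against 0.0462%. They were NSG1, PGCKA1, ADAMTS3, ARSJ, PCDH18, NPY1R and TLR3. ADAMTS3 (start 72569221) had a peak in 0 parental and 5 resistant libraries, and TLR3 (start 186069156), a sensor of double-stranded RNA, in 2 and 6. The resistant-only region in ADAMTS3, 860 bp from this start, was called in all 6 resistant libraries, since merged regions join peaks of different extent. Starts called throughout made up 50.4% of the chromosome's genes and 56.7% elsewhere, and those never called 35.2% and 28.2%.

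Starts called throughout and starts never called differed in base composition over the chromosome, although single stretches departed from it. The 250 bases printed for COQ2, a start called throughout, held 9 CG. However, the annotated span of COQ2 reaches past the start used here, to 83285134, so those bases lie within the gene. Over the 300-base RefSeq windows, which run from 250 bases before to 50 after the start, the median GC content was 66.0% for the 331 starts called in all 12 libraries and 46.7% for the 231 called in none. Median CG counts were 28 and 5. The letters TATAAA, searched on both strands, were found in 3.93% of the former and 22.1% of the latter windows, and in 11.4% of all 657. On other chromosomes the shares were 4.73% and 19.2%, and 9.56% of all. The starts called in 1 to 11 libraries lay between these, with a median GC content of 60.7% and 18 CG.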

How the data were processed

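Per the labels, 12 ATAC-seq libraries of MIAPaCa2 cells fell into 4 groups of 3 by phenotype and treatment, and replicate numbers were taken from the titles. The authors aligned reads with Bowtie2 2.1.0 (hg38) and called broad peaks per library with MACS2 in paired-end mode; its version is not given in the sources used here. The deposited lists give, for each peak, the authors' fold over local background, the authors' score derived from the q-value, and the authors' -log10 of p and of q, with no read counts, so no count model was used. The smallest -log10 q was 1.00, and the number of sequenced fragments is unknown.

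Peaks on chromosomes 1 to 22 and X were kept (0.892% of 677901 were left out) and placed in 10-Mb bins by midpoint. Regions were merged peaks overlapping by at least 1 bp. Shares were compared by two-sided exact permutation of treatment within phenotype (400 assignments), adjusted by Benjamini-Hochberg over 23 chromosomes or 310 bins; this test of an interaction has little power where 1 phenotype alone responds. Scripts used Python 3.11.15, numpy 2.4.6, pandas 2.3.3 and scipy 1.17.1 and were tested on simulated data. Gene starts and promoters came from RefSeq (GRCh38.p14). Named regions were the 5 best ranked by median rank of -log10 q in each phenotype direction and among regions of all 12 libraries, the 5 widest of the latter, 2 per direction of treatment, and the 3 highest and 2 lowest bins. The members, lists and tests were chosen with earlier results of these data known. Alternatives were peaks with a -log10 q of at least 3, equal list lengths, a width filter, covered bases, omission of 48 to 53 Mb, other bins, 50% cover of a region, regions over 1 kb from a gene end, a replicate block and omission of each library.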

Additional observations from a re-analysis of the deposited data

How the results depend on the processing

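The difference between phenotypes kept its sign under all 17 alternatives, but fell to 0.299 points when bases were counted in place of peaks, a shift larger than the pooled SD within groups (0.112) but smaller than the SD of either phenotype. Omitting single libraries gave 0.382 to 0.458 points. The interaction of treatment and phenotype stayed positive, at 0.287 by covered bases, 0.297 with wider peaks, 0.311 with stricter peaks, 0.549 with lists of equal length and 0.365 to 0.517 points with a library left out, and passed the threshold only without untreated resistant replicate 3 (0.516 points, adjusted p = 0.0460 by exact permutation); over all its alternatives the adjusted p lay between 0.0460 and 0.172. The average effect of treatment stayed negative and did not pass in any alternative (adjusted p 0.280 to 0.920 by exact permutation). That of the relative fold did not pass either (adjusted p 0.230 to 0.705 by exact permutation). In each of 14 alternatives 0 chromosome 4 bins were called for treatment. A bin could pass only if many bins reached the smallest possible p together. The lack of calls therefore cannot decide whether single bins changed. Bins without overlap between phenotypes numbered 4 under other bins, stricter peaks and wider peaks, and 4 to 8 with a library left out. Regions open only in resistant cells numbered 18 among peaks with a -log10 q of at least 3, where regions open only in parental cells numbered 0, and 8 to 15 and 1 to 4 with a library left out. At the stricter threshold such regions were not counted over all chromosomes. Peaks passing it made up 65.2% of resistant and 49.0% of parental lists, so the 18 and 0 are not a result about chromosome 4. By construction, leaving out a library can only keep or raise these counts of bins and regions, so their ranges show no stability. What caused the other shifts was not tested.

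With the replicate block the interaction was 0.449 points (exact permutation p = 0.0312, the smallest of 64 assignments, adjusted p = 0.0799). The treatment effect was -0.0771 points (adjusted p = 0.643, exact permutation). No call changed. However, a chromosome could pass here only if many of the 23 reached the smallest p together. The unchanged calls therefore cannot decide whether the block matters. Same-numbered libraries share only a number in the labels, and their deviations from the group means over 310 bins correlated between -0.44 and 0.66 in the 6 pairs, at or below -0.08 in 2 of them. Unknown read depth limits all values: a missing peak is not a closed site.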
